A study of Mus musculus with 7 samples.

Results

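Sox10, Olig1, Olig2, Nkx2-2, Foxd3, Erbb3 and S100b are genes of the oligodendrocyte lineage, of the neural crest or of both. They were taken by name from a list drawn up with earlier results of these data known, and all 7 had a row of their own among the 23358 gene rows of the authors' deposited table. The series compared cells labelled endothelial, sorted from brains of C57Bl6 mouse embryos at stage E14.5, between a Tgfbr2-deficient group of 4 libraries and a control group of 3 libraries. Tgfbr2 encodes a receptor kinase that binds TGF-β ligands. Cells of both groups were sorted on TdTomato, the red fluorescent protein of the Ai14 reporter allele, which marks cells where Cre recombinase has acted. The Cre driver, the deleted exons, the genotype of the controls beyond their label and any pooling of embryos are given in none of the sources used here. Each library was made from 2000 to 5000 cells by poly(A)-primed, PCR-amplified cDNA synthesis and read as single-end reads of 50 bases.

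Oligodendrocytes are the cells that myelinate axons in the central nervous system. They arise from ventricular progenitors in which sonic hedgehog signalling switches on the transcription factors OLIG2 and NKX2-2, and their precursors then take up SOX10. The neural crest is a migratory population at the border of the neural tube that gives rise to Schwann cells, peripheral neurons, melanocytes and, in the head, to bone, meninges and the mural cells of forebrain vessels. FOXD3 and SOX10 are among its early transcription factors, and ERBB3 receives the neuregulin signal on which Schwann cell precursors depend. None of these genes is a marker of endothelium.

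Each gene had 1 FPKM value per group (a read count corrected for transcript length and for library size), made by the authors' Cuffdiff run from all libraries of the group. Values of single libraries were not analysed here, which leaves their spread and depth unknown, and the q-value in the authors' deposited table is the error measure for each gene. Since the labels do not tie libraries to separate embryos, a q-value reflects only differences between these libraries, which may be technical. A gene was counted as tested where Cuffdiff gave the status OK and at least 1 group reached 1 FPKM, and was called higher or lower at q under 0.05. Of the 7 genes 5 were tested. The other 2, Nkx2-2 and S100b, were left untested by Cuffdiff and stayed below 1 FPKM in both groups.

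Sox10, Foxd3, Olig1 and Erbb3, 4 of the 7 genes, were called higher in Tgfbr2-deficient cells. Olig2 did not pass the threshold, and none was called lower by the Cuffdiff q-values in the authors' deposited table, nor was any lower at an unadjusted p under 0.05, where 5 were higher. Among all 13356 tested genes 23.9% were called higher and 14.7% lower. That share depended on level, and all 5 tested members had a mean of both groups between 1 and 5 FPKM, where 42.5% of 3872 tested genes were called higher and 3.12% lower. Foxd3 reached 1 FPKM only in the Tgfbr2-deficient group, so it could not have passed that minimum without a difference between the groups. Erbb3 was lost and the other 3 were kept at q under 0.01, where 20.3% of tested genes were higher and 7.68% lower, and also where a deposited log2 fold of at least 1 was required, with 20.1% higher and 2.76% lower. Only Sox10 reached a minimum of 5 FPKM, at which 17.2% of tested genes were higher and 19.5% lower. All 4 were kept with no minimum, where 24.8% were higher and 14% lower, and with q recomputed over the tested genes. The median log2 fold of (FPKM + 1) over the 5 tested genes was 1.30, beside −0.08 over all tested genes and 0.42 over those between 1 and 5 FPKM. FPKM is relative to the other RNA of a group, and in sorted bulk samples fewer cells of a type and less RNA per cell cannot be told apart.

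**Figure D1:**
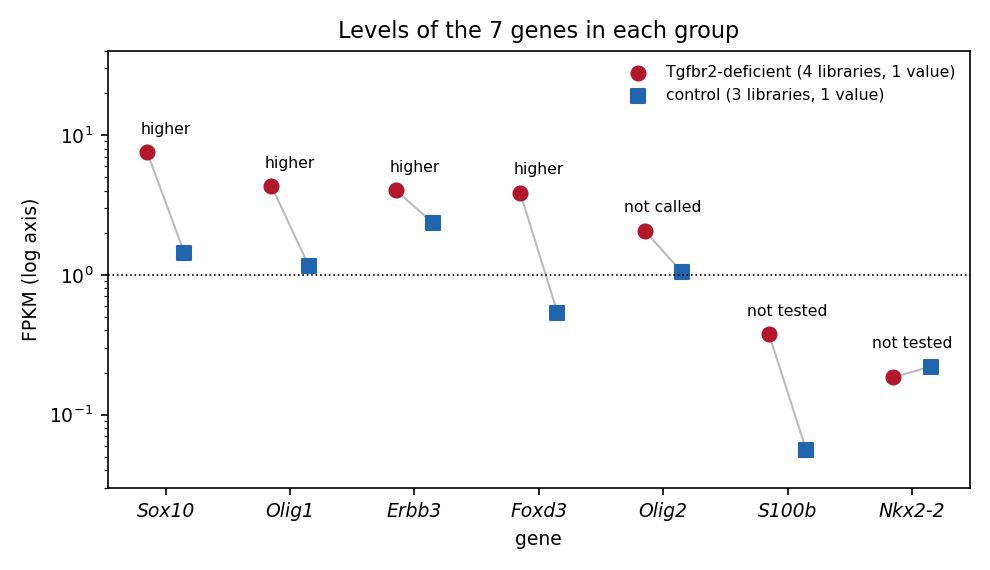
FPKM of the 7 genes on a log axis in the Tgfbr2-deficient group (red circles) and the control group (blue squares), 1 value per group with no error bar, since the authors combined the libraries. The dotted line marks 1 FPKM. In Tgfbr2-deficient and control cells, Sox10 at 7.57 and 1.44 FPKM and Foxd3 at 3.87 and 0.537 FPKM show wide gaps, and Erbb3 at 4.02 and 2.34 FPKM a narrow one.

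Sox10 was the most abundant of the 7 genes in the Tgfbr2-deficient group and stood behind Erbb3 in the control group. It encodes the SOX factor that neural crest cells, Schwann cells, melanocyte precursors and oligodendrocyte precursors share. Its level was 7.57 FPKM in the Tgfbr2-deficient group, against 1.44 FPKM in the control group, a ratio of 5.27. The authors' deposited table gives it a log2 fold of 2.40 with q = 0.00029, the smallest q there. On the log2(FPKM + 1) scale the fold was 1.82, larger than that of 96.2% of all tested genes and of 95.9% of those between 1 and 5 FPKM. The locus lies on chromosome 15 from 79154913 to 79164490 in mm10, on the minus strand, where the GENCODE M21 annotation of the same assembly shows no other gene overlapping it (ENSMUSG00000033006.10).

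Foxd3 showed the largest deposited fold of the 5 tested genes. It encodes a forkhead repressor and pioneer factor that keeps neural crest cells undifferentiated and that pluripotent cells of the early embryo also need. Foxd3 stood at 3.87 FPKM in the Tgfbr2-deficient group, against 0.537 FPKM in the control group, 7.20 times as much. The authors' deposited table gives it a log2 fold of 2.85 at q = 0.00029. The gene is on chromosome 4 from 99656299 to 99658671 on the plus strand (ENSMUSG00000067261.4). Of its 2275 distinct windows of 50 bases, the length of a read, 19 also occur in transcripts of the relative Foxd4 and 40 in the annotated microRNA gene Gm23366, which lies inside it. Foxd4 was at 0.0224 FPKM in Tgfbr2-deficient cells and listed at 0 in control cells.

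**Figure D2:**
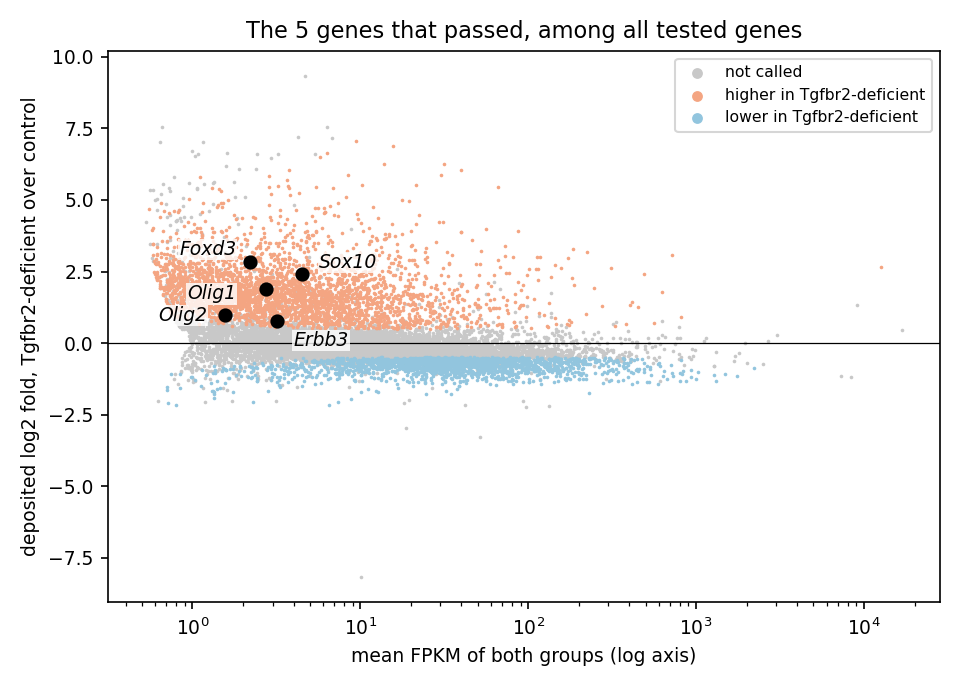
Deposited log2 fold of the Tgfbr2-deficient over the control group against the mean FPKM of both groups (log axis) for each tested gene with a finite fold, coloured by call, with the 5 tested members as black points. Foxd3 at 2.85, Sox10 at 2.40 and Olig1 at 1.89 lie within the cloud of higher genes, and Olig2 at 0.98 and Erbb3 at 0.78 lie near its lower edge.

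Olig1 and Olig2 lie next to each other, and only Olig1 passed the test. They encode the related basic helix-loop-helix factors of the oligodendrocyte lineage: OLIG2 specifies motor neuron and oligodendrocyte progenitors, and OLIG1 acts in the later maturation of the lineage. Both are on the plus strand of chromosome 16 in mm10, Olig2 from 91225550 to 91228677 and Olig1 from 91269769 to 91271939, with 41091 bases between them. The coding stretch in which they are most alike, found as the best ungapped match, falls in the part that encodes the basic helix-loop-helix domain. It is shown because similar genes can exchange reads when reads are short. Capitals mark the bases that differ between the genes, 5′ to 3′, in GRCm38, with sequence from GENCODE M21 transcripts.
Olig1 (chr16:91270148-91270238): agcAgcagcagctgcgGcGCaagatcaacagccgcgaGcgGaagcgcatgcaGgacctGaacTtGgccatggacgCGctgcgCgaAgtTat
Olig2 (chr16:91226713-91226803): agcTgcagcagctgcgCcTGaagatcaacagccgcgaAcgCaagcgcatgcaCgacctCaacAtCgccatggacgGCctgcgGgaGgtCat
Over these 91 bases 76 were identical (83.5%), 15 differed, and the longest identical run was 17 bases. No window of 50 bases was shared between any transcripts of the pair, so an exactly matching read of full length came from only one of them.

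Olig1 stood at 4.31 FPKM in the Tgfbr2-deficient group, against 1.16 FPKM in the control group, 3.71 times as much. In the authors' deposited table its log2 fold was 1.89 at q = 0.00029. Olig2 stood at 2.07 FPKM in the Tgfbr2-deficient group and 1.05 FPKM in the control group. For Olig2 the authors' deposited table lists p = 0.0214 and q = 0.0543 at a log2 fold of 0.98, just above the threshold of 0.05. Per length, Olig1 was at 2.08 times the level of Olig2 in the Tgfbr2-deficient group and at 1.11 times its level in the control group. A difference between the folds of the pair was not tested, as this needs values per library. The end of Olig1 overlaps the long non-coding gene Gm15966 on the opposite strand, which shares 108 of its 2113 windows of 50 bases (5.11%). Neither library kit marks the strand, so reads from that overlap cannot be assigned to one of them, while Olig2 shares no window with another gene.

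Erbb3 was the member with the highest level in the control group and the smallest fold among those called. It encodes a neuregulin receptor that signals through a partner, mainly ERBB2, because its own kinase domain is nearly inactive. Erbb3 stood at 4.02 FPKM in the Tgfbr2-deficient group, against 2.34 FPKM in the control group, a ratio of 1.71. The authors' deposited table lists p = 0.0078 and q = 0.0237 for it, at a log2 fold of 0.78, so it was called at 0.05 and would not be at 0.01. Sox10 was at 1.88 times the level of Erbb3 in the Tgfbr2-deficient group and at 0.612 times its level in the control group. On the log2(FPKM + 1) scale Erbb3 and Olig2 both had a fold of 0.58, larger than that of 55.9% and 55.8% of tested genes between 1 and 5 FPKM. The Erbb3 locus is on chromosome 10 from 128569368 to 128589501 on the minus strand (ENSMUSG00000018166.8).

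Nkx2-2 and S100b were near the bottom of the measured range. NKX2-2 is the homeodomain factor of ventral progenitors and of differentiating oligodendrocyte precursors, and S100B is a calcium-binding protein of astrocytes, Schwann cells and maturing oligodendrocytes. Nkx2-2 had 0.185 FPKM in Tgfbr2-deficient cells and 0.221 FPKM in control cells. It is the single member with the lower value in the Tgfbr2-deficient group, and Cuffdiff did not test it. Its row spans chromosome 2 from 147177546 to 147331681, a span given also for the antisense gene listed as Nkx2-2as, which was at 0.0314 FPKM in the Tgfbr2-deficient group and 0.00483 FPKM in the control group. In GENCODE M21 the antisense gene Nkx2-2os shares 231 of the 2872 windows of 50 bases of Nkx2-2 (8.04%), a larger share than for Olig1. S100b had 0.379 FPKM in Tgfbr2-deficient cells and 0.0561 FPKM in control cells, also untested, on chromosome 10 from 76253836 to 76261319. Its gene body overlaps Dip2a on the opposite strand, which was at 6.93 and 6.37 FPKM in Tgfbr2-deficient and control cells, but their transcripts share no window of 50 bases. No direction is drawn for either gene, and at these levels neither can be called absent.

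RefSeq promoter sequence was at hand for 4 of the 7 genes, Olig2, Nkx2-2, Foxd3 and S100b. The 250 bases before the start of Foxd3, which was called higher, and of Olig2, which was not, are shown for comparison, from GRCm38.p6 on the plus strand, 5′ to 3′. Capitals mark any match to ACAAAG or ACAATG (core words of SOX binding sites), CATATG (an E-box) or CAGACA (which contains the SMAD word CAGAC), searched on both strands.
Foxd3 (chr4:99656049-99656298): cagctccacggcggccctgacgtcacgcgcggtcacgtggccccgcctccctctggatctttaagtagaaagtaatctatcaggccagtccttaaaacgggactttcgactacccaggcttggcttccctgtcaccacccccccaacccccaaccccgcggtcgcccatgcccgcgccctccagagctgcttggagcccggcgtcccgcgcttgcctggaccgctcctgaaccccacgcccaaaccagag
Olig2 (chr16:91225300-91225549): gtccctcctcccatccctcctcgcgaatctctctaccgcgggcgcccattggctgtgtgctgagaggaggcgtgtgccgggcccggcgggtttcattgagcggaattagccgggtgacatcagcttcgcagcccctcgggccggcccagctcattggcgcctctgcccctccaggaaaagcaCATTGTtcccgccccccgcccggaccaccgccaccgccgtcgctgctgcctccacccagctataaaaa
The Foxd3 window held none of the 4 words and the Olig2 window held 1, a match to ACAATG on the opposite strand. Among 27025 promoter windows of the same length, ACAAAG was found in 16.5%, ACAATG in 10.99%, CATATG in 3.47% and CAGACA in 17.1%. These windows were rich in G and C, at 65.6% for Foxd3 and 66.8% for Olig2, against 56.4% for Nkx2-2, 53.6% for S100b and a median of 52.0% over all windows. They held 21 CpG pairs for Foxd3, 22 for Olig2, 8 for Nkx2-2 and 2 for S100b, against a median of 6.

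**Figure D3:**
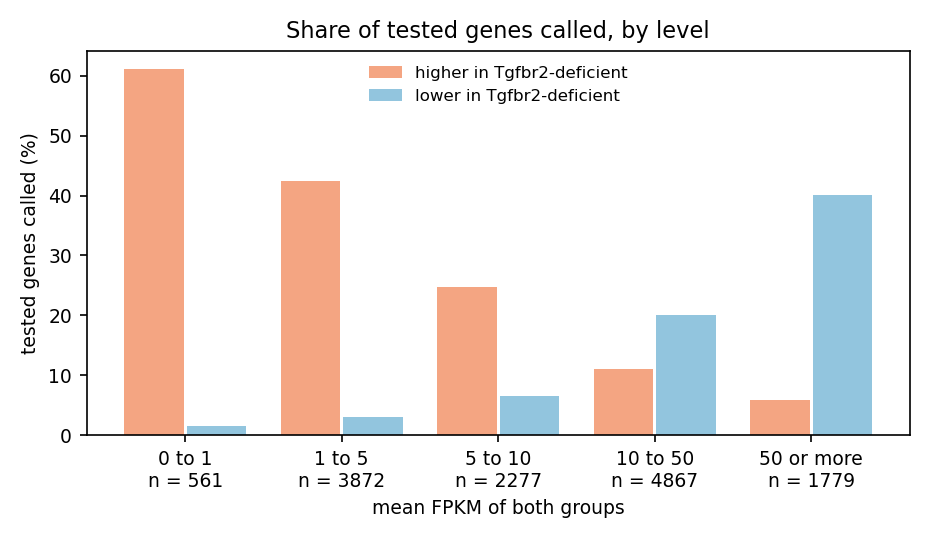
Share of tested genes called higher (orange) or lower (blue) in the Tgfbr2-deficient group, by the mean FPKM of both groups, with the number of tested genes under each pair of bars. The share called higher was 61.1% below 1 FPKM, 42.5% from 1 to 5 FPKM, where the 5 tested members lie, and 5.85% at 50 FPKM or more.

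Other genes of oligodendrocyte precursors were higher alongside Sox10 and Olig1. Cspg4, the NG2 proteoglycan of precursors and pericytes, stood at 4.99 FPKM in the Tgfbr2-deficient group and 0.431 FPKM in the control group. Pdgfra, the receptor that drives precursor growth and that fibroblasts also carry, was at 8.76 and 1.65 FPKM in Tgfbr2-deficient and control cells. Ptprz1, a receptor phosphatase of precursors and radial glia, was at 5.66 and 1.07 FPKM, and Sox9, the SOX factor of glial progenitors and crest, at 12.3 and 3.66 FPKM in Tgfbr2-deficient and control cells. Of 22 listed genes 15 were tested, 12 were higher and 0 lower by the Cuffdiff q-values (0 lower also at an unadjusted p under 0.05), with a median log2(FPKM + 1) fold of 1.09, and 5 of the 12 passed the minimum only through the Tgfbr2-deficient group. These counts, and those of the neural crest and Schwann cell precursor genes, stand beside 23.9% called higher over all tested genes and 42.5% between 1 and 5 FPKM. All 4 of the genes just named also stand in a marker list of another cell type, and without them 8 of 11 were higher with a median of 0.76. Gpr17, a receptor of committed precursors that no other list holds, was at 1.38 FPKM in the Tgfbr2-deficient group and 0.224 FPKM in the control group. The authors' deposited table lists q = 0.00029 for it. Gpr17 passed the minimum only through the Tgfbr2-deficient group, and its mean of both groups was 0.80 FPKM. Below a mean of 1 FPKM 61.1% of tested genes were called higher. Zfp488, Nkx6-2 and Tcf7l2, also in no other list, were tested and not called.

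Genes of mature myelin were mostly untested or near 1 FPKM, and the share called higher was near that of other genes at low levels. Cldn11, a tight junction protein of myelin and meninges, stood at 3.50 FPKM in the Tgfbr2-deficient group and 0.557 FPKM in the control group. Mal, a small myelin proteolipid, was at 1.01 and 0.179 FPKM in Tgfbr2-deficient and control cells. Of 18 listed genes 9 were tested and 4 were higher, beside 42.5% of all tested genes between 1 and 5 FPKM, and each of the 4 passed the minimum only through the Tgfbr2-deficient group. The 1 that was lower was Cnp, a nucleotide phosphodiesterase of myelin, at 31.8 FPKM in the Tgfbr2-deficient group and 49.4 FPKM in the control group (q = 0.0119 in the authors' deposited table). Mbp, the myelin basic protein gene, was at 8.16 and 6.87 FPKM in Tgfbr2-deficient and control cells and did not pass, and Opalin was listed at 0 in both groups. The median log2(FPKM + 1) fold was 0.38.

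Neural crest genes were higher with the single exception of Ednrb among those tested. Ets1, an ETS factor of cranial crest and of endothelium, stood at 23.0 FPKM in the Tgfbr2-deficient group and 3.98 FPKM in the control group. Twist1, a factor of cranial mesenchyme, was at 13.1 and 3.08 FPKM, and Prrx1, a homeobox factor of mesenchyme, at 7.14 and 1.11 FPKM in Tgfbr2-deficient and control cells. Of 18 listed genes 14 were tested, 13 were higher and 1 was lower, with a median log2(FPKM + 1) fold of 1.22, and 6 of the 13 passed the minimum only through the Tgfbr2-deficient group. Ednrb, the endothelin receptor of migrating crest, was far more abundant than the rest, at 163 FPKM in the Tgfbr2-deficient group and 335 FPKM in the control group (q = 0.0023 in the authors' deposited table). Without the 3 genes that a marker list also holds, 10 of 11 were higher, and the 10 still include Ets1 and Prrx1. Tfap2a and Pax7, further crest factors, were untested, Tfap2a at 0.633 FPKM in Tgfbr2-deficient cells and 0.336 FPKM in control cells and Pax7 at 0.245 and 0.130 FPKM in Tgfbr2-deficient and control cells.

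Most Schwann cell precursor genes were higher, and melanocyte genes were mostly too low to test. Gfra3, a coreceptor for artemin on peripheral glia and sensory neurons, stood at 4.51 FPKM in the Tgfbr2-deficient group and 0.762 FPKM in the control group. Ncam1, a neural adhesion molecule, was at 35.6 and 11.05 FPKM, and Fabp7, a fatty acid binding protein of glia and radial glia, at 74.8 and 25.5 FPKM in Tgfbr2-deficient and control cells. Of 15 listed Schwann cell precursor genes 14 were tested, 11 were higher and 1, Ednrb, was lower, with a median log2(FPKM + 1) fold of 1.24, and 5 of the 11 passed the minimum only through the Tgfbr2-deficient group. Without the 3 genes of a marker list, 8 of 11 were higher. Of 10 melanocyte lineage genes 3 were tested and 1 was higher, Kit, a receptor that mast cells and blood progenitors also carry, at 27.8 FPKM in the Tgfbr2-deficient group and 1.98 FPKM in the control group. None was called lower by the Cuffdiff q-values, and 1, Mitf, was lower at an unadjusted p under 0.05, at 3.26 and 4.77 FPKM in Tgfbr2-deficient and control cells. The melanocyte counts stand beside 23.9% called higher and 14.7% lower over all tested genes. Between 1 and 5 FPKM the shares were 42.5% and 3.12%.

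Among the receptors with which ERBB3 pairs, Erbb2 had the largest fold. Erbb2 stood at 7.76 FPKM in the Tgfbr2-deficient group, against 1.64 FPKM in the control group, with a log2 fold of 2.25 and q = 0.00029 in the authors' deposited table. Erbb4 was at 1.21 and 0.280 FPKM and Egfr at 2.92 and 1.57 FPKM in Tgfbr2-deficient and control cells, with log2 folds of 2.11 and 0.90 and q of 0.00029 and 0.0400 in the authors' deposited table. The neuregulin gene Nrg1, which encodes the main ligand of ERBB3, was at 1.61 FPKM in the Tgfbr2-deficient group and 0.549 FPKM in the control group (q = 0.0053 in the authors' deposited table). Lrig1, which lowers ERBB levels, was at 5.98 and 1.23 FPKM, Bace1, a protease that cleaves neuregulin, at 10.1 and 4.33 FPKM, and the ligand gene Hbegf at 3.39 and 1.22 FPKM in Tgfbr2-deficient and control cells. Of 20 listed receptors, ligands and regulators 14 were tested, 8 were higher and 1 was lower, with a median log2(FPKM + 1) fold of 0.67, and 3 of the 8 passed the minimum only through the Tgfbr2-deficient group. Over all tested genes 23.9% were higher and 14.7% lower, and between 1 and 5 FPKM 42.5% were higher and 3.12% lower. The 1 listed gene that was lower was Adam17, the sheddase of several ligands, at 36.1 FPKM in the Tgfbr2-deficient group and 53.9 FPKM in the control group (q = 0.0282 in the authors' deposited table).

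Sonic hedgehog pathway genes, upstream of Olig2 and Nkx2-2 in ventral progenitors, were higher in part. The coreceptor gene Gas1 stood at 43.8 FPKM in Tgfbr2-deficient cells and 11.6 FPKM in control cells, and its partners Boc at 6.57 and 1.18 FPKM and Cdon at 3.20 and 0.612 FPKM in Tgfbr2-deficient and control cells. Gli3, the main repressor of the pathway, was at 2.88 and 0.654 FPKM in Tgfbr2-deficient and control cells. Shh itself was untested at 0.467 and 0.230 FPKM in Tgfbr2-deficient and control cells. Its transcriptional targets Gli1, at 1.41 and 0.421 FPKM in Tgfbr2-deficient and control cells, and Ptch1, at 3.84 and 2.55 FPKM, did not pass, with q of 0.413 and 0.0825 in the authors' deposited table. Of 17 listed genes 15 were tested, 9 were higher and 0 lower by the Cuffdiff q-values (0 lower also at an unadjusted p under 0.05), with a median log2(FPKM + 1) fold of 0.80, and 6 of the 9 passed the minimum only through the Tgfbr2-deficient group. The share called higher was 23.9% over all tested genes and 42.5% between 1 and 5 FPKM.

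Relatives of the member transcription factors were higher wherever they were tested, and relatives of S100b moved both ways. Foxd1, a forkhead factor of stromal mesenchyme and of the hypothalamus, stood at 12.2 FPKM in the Tgfbr2-deficient group and 2.83 FPKM in the control group. Bhlhe22, a helix-loop-helix factor of cortical neurons, was at 5.32 and 1.26 FPKM in Tgfbr2-deficient and control cells. Sox8, which with Sox9 and Sox10 forms the SOXE subfamily, was at 2.73 and 0.485 FPKM in Tgfbr2-deficient and control cells, so all 3 SOXE genes were higher, with deposited log2 folds of 2.49 for Sox8, 1.74 for Sox9 and 2.40 for Sox10. Of 14 relatives 7 were tested and all 7 were higher, with a median log2(FPKM + 1) fold of 1.33. Of these 7, 3 passed the minimum only through the Tgfbr2-deficient group. The share called higher was 23.9% over all tested genes and 42.5% between 1 and 5 FPKM. It was 24.8% between 5 and 10 FPKM, where Sox9 and Foxd1 lie. Of 16 genes of the S100 family with the receptor Ager, 9 were tested, 2 were higher and 3 lower, with a median of −0.13. The shares over all tested genes were 23.9% higher and 14.7% lower. At a mean of 10 to 50 FPKM, where the 3 lower genes lie, 11.1% of tested genes were higher and 20% lower. S100a16 stood at 23.1 FPKM in the Tgfbr2-deficient group and 1.91 FPKM in the control group, and the neutrophil gene S100a9 at 6.49 and 2.24 FPKM in Tgfbr2-deficient and control cells. S100a1, at 28.8 FPKM in the Tgfbr2-deficient group and 49.9 FPKM in the control group, S100a6, at 8.47 and 15.3 FPKM in Tgfbr2-deficient and control cells, and S100a13, at 24.8 and 42.2 FPKM, were lower.

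**Figure D4:**
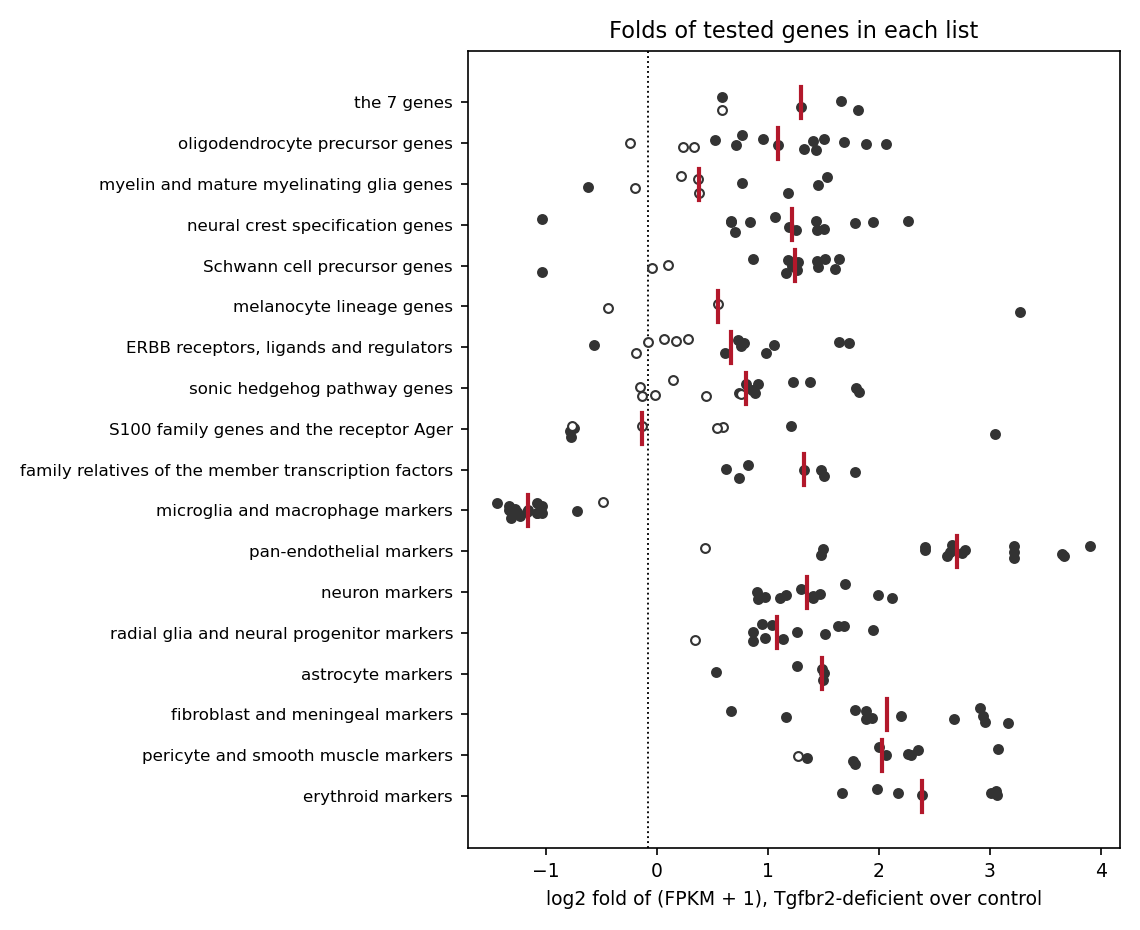
Log2 fold of (FPKM + 1) of the Tgfbr2-deficient over the control group for each tested gene of each list, filled where called and open where not, with the list median as a red bar and the median of all tested genes (−0.08) as a dotted line. The 5 tested members have a median of 1.30, between those of the macrophage markers at −1.16 and the pan-endothelial markers at 2.70.

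Markers of microglia and macrophages were mostly lower in the Tgfbr2-deficient group, and markers of the other cell types listed were mostly higher. Microglia and macrophage markers, with 15 of 16 lower and 0 higher (also at an unadjusted p under 0.05), summed to 6618 FPKM in the Tgfbr2-deficient group and 14526 FPKM in the control group. Pan-endothelial markers, with 15 of 16 higher, summed to 426 FPKM in the Tgfbr2-deficient group and 84.4 FPKM in the control group, a smaller sum than that of the macrophage markers in both groups. Summed levels in the Tgfbr2-deficient and control groups were 332 and 139.9 FPKM for neuron markers (12 of 12 higher), 345 and 204 FPKM for radial glia and progenitor markers (11 of 12) and 1089 and 140.2 FPKM for fibroblast and meningeal markers (12 of 12). They were, in Tgfbr2-deficient and control cells, 118 and 17.1 FPKM for pericyte and smooth muscle markers (9 of 10) and 2343 and 356 FPKM for erythroid markers (7 of 7). These counts stand beside 23.9% called higher and 14.7% lower over all tested genes. At a mean of 50 FPKM or more, where most macrophage markers lie, 5.85% were higher and 40.1% lower. Between 1 and 5 FPKM 42.5% were higher and 3.12% lower. No marker of these lists was at 0 in either group, and their part in the levels of the 7 genes was not tested. The targeted gene Tgfbr2 did not pass, at 65.4 FPKM in the Tgfbr2-deficient group and 91.1 FPKM in the control group (the authors' deposited table lists q = 0.0953). Neither the deleted exons nor values per exon were at hand, so the deletion could not be checked from this value, and the groups are named as labelled.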

How the data were processed

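The submitters' processing notes name the mm10 build and the tools TopHat2, Cufflinks 2.2.1 and Cuffdiff. The sources used here give neither the annotation nor the library scaling and test options. Per the file headers, the authors ran Cuffdiff at gene level, and its FPKM column for each group combines the libraries of that group. The deposited log2 fold, made by the authors, divides the Tgfbr2-deficient by the control FPKM and adds no pseudocount. Each p-value and q-value was taken as deposited by the authors, and 2425 genes tied at the lowest p-value of 5e-05. The deposited test statistic, a score, was used only to check the sign of the fold. Columns of single libraries numbered 0, so depth is unknown and no interval was set.

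Genes were called at q under 0.05 among rows of status OK with at least 1 FPKM in 1 group. Of 23358 rows 14043 had that status and 13356 met the minimum. A finite deposited fold was missing for 39 of these. Folds of lists are log2 of (FPKM + 1), which understates the change of low genes. Alternatives were no minimum, a minimum of 5 FPKM, a threshold of 0.01, an added limit of 1 on the log2 fold, q recomputed over the tested genes, 0.1 FPKM added and 2 centrings. Table starts are counted from 1 here.

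The 7 genes, the 9 pathway lists and the 8 marker lists (226 symbols, all matched directly) were chosen with earlier results of these data known. Named from each pathway list were up to 4 called genes with the largest log2(FPKM + 1) fold, and from each marker list the 2 most abundant genes. Those given with values of their own are Gja1, Sox9 and Fabp7, and the others are given only within the sums of their lists. A few genes that the rule for pathway lists picks are not reported here. Other named genes, and the range of 1 to 5 FPKM, were chosen after their values were seen. The comparison of proteins that had been planned was not made, and coding sequence is shown in its place. Windows of 50 bases were compared with all GENCODE M21 transcripts on both strands. Python 3.11.15, pandas 2.3.3 and numpy 2.4.6 were used.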

Additional observations from a re-analysis of the deposited data

How the results depend on the processing

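The 4 higher genes among the 7 remained 4 without an FPKM minimum and with recomputed q, and 3 (Sox10, Olig1 and Foxd3, without Erbb3) at q under 0.01 or with a log2 fold of at least 1. At a minimum of 5 FPKM only Sox10 was tested, and the count became 1. That minimum leaves fewer genes to test, and 17.2% of all tested genes were higher and 19.5% lower there. The higher counts became 6 of 7 tested for oligodendrocyte precursor, 0 of 3 for myelin and 5 of 6 for neural crest genes. They were 6 of 8 for Schwann cell precursor, 3 of 7 for ERBB and 2 of 5 for sonic hedgehog genes. For the relatives of the factors the count was 3 of 3. At q under 0.01 the lower counts of myelin, ERBB and S100 genes became 0 and 1 S100 gene was higher. With a log2 fold of at least 1 the same lower counts were 0. Without a minimum 2 melanocyte genes were higher (Dct joins Kit). Leaving out genes of another marker list, a choice made after seeing the data, moved no count by over 1.5 times. With ribosomal protein genes as the zero, every log2 fold gains 0.54, and with all tested genes 0.079. The median of the tested members became 1.84 with the first and 1.38 with the second, and 1.80 with 0.1 FPKM added. The untested value of Nkx2-2 changed sign, to 0.50 and 0.037, and the S100 median became 0.41 with ribosomal centring. The cause of these sign changes is the size of the shift added. No paired analysis was possible because the table holds no values per library, so neither a replicate block nor leaving out a library could be run. The depth is unknown, and the low levels of Nkx2-2 and S100b have no test.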

Other observations

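Astrocyte markers were higher in the same groups. Gja1, the connexin of astrocytes and meninges, stood at 59.9 FPKM in the Tgfbr2-deficient group and 20.5 FPKM in the control group, and Aldoc, a glycolytic enzyme of astrocytes, at 9.61 and 2.77 FPKM in Tgfbr2-deficient and control cells. Of 8 markers 5 were tested and all 5 were higher, beside 23.9% of all tested genes, with a median log2(FPKM + 1) fold of 1.49. By mean level, the share called higher was 42.5% from 1 to 5 FPKM, where Aldh1l1 and Fgfr3 lie. It was 24.8% from 5 to 10 FPKM, where Aldoc and Sox9 lie, and 11.1% from 10 to 50 FPKM, where Gja1 lies. Gfap and Aqp4, which mature astrocytes express, were untested, Gfap at 0.105 FPKM in Tgfbr2-deficient cells and 0.0274 FPKM in control cells and Aqp4 at 0.254 and 0.0464 FPKM in Tgfbr2-deficient and control cells. Cdh19, a cadherin of Schwann cell precursors, was also untested, at 0.445 FPKM in the Tgfbr2-deficient group and 0.0270 FPKM in the control group.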
